A study of Mus musculus with 12 samples.

Results

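The genes Avp and Oxt encode the precursors of vasopressin and oxytocin, the peptide hormones of the large (magnocellular) neurons of the hypothalamus. They were taken from a table of raw read counts by Ensembl gene ID, in which ENSMUSG00000037727 carries the mouse symbol Avp and ENSMUSG00000027301 the symbol Oxt, and so make up 2 of its 78334 gene IDs. The 12 libraries are bulk mRNA sequencing of hypothalamic tissue from male C57BL/6 mice, in 4 groups. The curcumin group (DMCUR, n = 3) was gavaged daily for 28 days with curcumin, a polyphenol of turmeric, at 50 mg/kg, and the garlic group (DMEAE, n = 2) with aged garlic extract at 200 mg/kg. The untreated diabetes group (DM, n = 4) was given vehicle. All 3 of these groups had received streptozotocin, a toxin of insulin-producing beta cells, by a single intraperitoneal dose of 70 mg/kg on postnatal day 2, and ate a diet with 60% of energy from fat for 8 weeks from the age of 3 weeks. Control mice (C, n = 3) ate standard chow and received vehicle, so a comparison with control cannot separate the toxin from the diet. The labels place the start of treatment at different weeks of the diet. They number the libraries within a group but do not tie each one to an animal of its own. P-values therefore rest on the variation among libraries, part of which may be technical.

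Vasopressin acts on the kidney to retain water and on vessels to raise pressure, and oxytocin drives milk ejection and uterine contraction. Within the brain both affect feeding and social behaviour. Magnocellular neurons of the paraventricular and supraoptic nuclei make one or the other hormone and release it from axon endings in the posterior pituitary, while smaller vasopressin neurons lie in the suprachiasmatic nucleus, the daily clock. Each hormone is cut from a precursor that also holds a neurophysin, its carrier protein. The genes are neighbours on mouse chromosome 2 with no annotated gene between them, and run toward each other.

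The coding sequences show what separates the genes and what they share, which bears on how reads can be told apart. The bases that encode each hormone, from the GENCODE M21 transcripts on GRCm38, are printed 5′ to 3′ with the bases that differ between the genes in capitals.
Avp: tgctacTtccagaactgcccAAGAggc
Oxt: tgctacAtccagaactgcccCCTGggc
These stretches of 27 bases differ at 5 positions. Further along, within the neurophysin-coding part, the transcripts share an unbroken run of 127 bases, at bases 144 to 270 of the Avp transcript and bases 156 to 282 of the Oxt transcript.
Shared run: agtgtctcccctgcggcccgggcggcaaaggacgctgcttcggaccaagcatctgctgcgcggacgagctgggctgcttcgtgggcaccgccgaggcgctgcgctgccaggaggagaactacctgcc
The run covers 22.0% of the 577 bases of Avp and 23.6% of the 537 bases of Oxt. Reads were 150 bases long, and 0 of the 428 windows of that length in Avp occurred unchanged in Oxt, with at least 2 mismatches. Within 5 mismatches, 41 windows of each transcript (9.6% for Avp and 10.6% for Oxt) matched the other gene. How reads in this stretch were assigned is not given in the sources used here.

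The RefSeq promoters, 250 bases before to 50 after the annotated start, are shown for reference, and their part in the hormone levels was not tested. Their coordinates are those of GRCm38.p6, whereas the counts were made on GRCm39. The Avp promoter lies at chr2:130582539-130582838 on the minus strand and the Oxt promoter at chr2:130575919-130576218 on the plus strand, both printed on the gene's own strand with motif matches in capitals.
Avp promoter: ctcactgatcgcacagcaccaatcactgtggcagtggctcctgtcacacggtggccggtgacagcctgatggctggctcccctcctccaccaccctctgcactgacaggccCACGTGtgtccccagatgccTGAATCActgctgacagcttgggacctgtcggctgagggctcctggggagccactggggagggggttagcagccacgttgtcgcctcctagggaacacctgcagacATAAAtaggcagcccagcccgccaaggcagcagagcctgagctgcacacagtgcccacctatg
Oxt promoter: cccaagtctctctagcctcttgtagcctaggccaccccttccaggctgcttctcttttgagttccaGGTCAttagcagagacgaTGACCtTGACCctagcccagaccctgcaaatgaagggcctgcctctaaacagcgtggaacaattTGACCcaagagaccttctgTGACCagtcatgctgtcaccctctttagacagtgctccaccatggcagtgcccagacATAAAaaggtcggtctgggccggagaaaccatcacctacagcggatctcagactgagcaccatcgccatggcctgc
On both strands, 5 motifs were searched, and none of the matches overlapped another. The E-box CACGTG, the site of clock proteins and related factors, occurred at 1 place in the Avp promoter and at 0 in that of Oxt, and is held by 7.2% of the 32851 RefSeq promoters of this length. An AP-1-like pattern, TGANTCA with any base at N, also occurred at 1 place in Avp, as TGAATCA, and at 0 in Oxt. This loose pattern is held by 7.8% of promoters. The nuclear receptor motif TGACC occurred at 5 places in Oxt and 0 in Avp (40.5% of promoters hold at least 1). The TATA core ATAAA was found at 1 place in each (40% of promoters), and the cAMP response motif TGACG in neither (20.8%). A match is a run of letters and not a measured binding site.

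Library totals ran from 12950017 to 30271706 counts. Levels are given as CPM, a gene's reads as a share of the library total after TMM scaling, which corrects for differences in composition. Some libraries stood apart in the markers of their tissue. Curcumin replicate 2 had 1 count of Nkx2-1, a defining transcription factor of the hypothalamus (0.0497 CPM, against 28.6 to 56.8 CPM in the other 11 libraries), and 4 counts of Otp (0.199 CPM, against 41 to 95 CPM). Sim1, Fezf1, Nr5a1 and Isl1 were at 0 to 0.397 CPM there too, while the thalamic gene Tcf7l2 was at 325 CPM, against 15.8 to 90.3 CPM elsewhere, and the neuronal gene Snap25 at 1983 CPM, against 651 to 1139 CPM. Of the other thalamic genes, Tnnt1 (12.6 CPM) and Lef1 (26.2 CPM) were also above all other libraries in curcumin replicate 2. Prkcd (18.2 CPM), Gbx2 (0.0497 CPM), Rgs16 (24.5 CPM), Ramp3 (5.96 CPM), Rora (76.6 CPM) and Plekhg1 (15.4 CPM) were inside their range. Other members of the hypothalamic lists were inside the range of the other libraries there, such as Six3 at 39 CPM (36.4 to 55 CPM elsewhere), Pou3f2 at 21 CPM (10 to 26.7 CPM) and Vip at 15.3 CPM (1.46 to 16.2 CPM). Of 6 magnocellular transcription factors, 3 were below all other libraries in it, as were 8 of 13 other hypothalamic transcription factors and 2 of 8 suprachiasmatic genes, while 2 of the 13 were above all others. Diabetes replicate 4 held growth hormone (Gh) at 732 CPM, against at most 8.43 CPM in the others, and prolactin (Prl) at 97.4 CPM. Garlic replicate 1 held the striatal gene Adora2a at 23.1 CPM, against at most 3.21 CPM elsewhere, and the lowest level of Vip, a peptide of the suprachiasmatic nucleus, at 1.46 CPM, against 3.31 to 16.2 CPM. The comparisons of Avp and Oxt that these libraries enter are given with and without them.

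Avp was most abundant in the diabetes group and least in the curcumin group. With curcumin, replicates 1 to 3 held 48.8, 0.348 and 336 CPM, and with garlic extract, replicates 1 and 2 held 149 and 816 CPM. Untreated diabetes replicates 1 to 4 held 705, 1520, 725 and 1846 CPM, and there were 450, 606 and 742 CPM in control replicates 1 to 3. Every curcumin library lay below every other library except garlic replicate 1, which lay below curcumin replicate 3. Diabetes and control overlapped, since diabetes replicates 1 and 3 were below control replicate 3, and diabetes replicates 2 and 4 were above all others. The group means were 129 ± 182 CPM (SD, n = 3) with curcumin, 482 ± 472 CPM (n = 2) with garlic extract, 1199 ± 575 CPM (n = 4) in diabetes and 599 ± 146 CPM (n = 3) in control. In order, diabetes stood above control, garlic and curcumin, and each mean differed from its neighbour by no more than the larger of their SDs, apart from diabetes and control, whose means differed by slightly more. The low value in curcumin replicate 2 rests on 7 reads, and the other 11 libraries had 1031 to 35721.

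Oxt was close to equal in diabetes and control and lowest with curcumin. With curcumin, replicates 1 to 3 held 59.7, 0.646 and 282 CPM, and with garlic extract, replicates 1 and 2 held 249 and 510 CPM. Untreated diabetes replicates 1 to 4 held 219, 822, 285 and 939 CPM, and there were 457, 718 and 526 CPM in control replicates 1 to 3. The control libraries lay inside the range of the diabetes libraries, which split into a pair below and a pair above all controls. Means were 114 ± 149 CPM with curcumin, 379 ± 184 CPM with garlic extract, 566 ± 367 CPM in diabetes and 567 ± 135 CPM in control (SD, n = 3, 2, 4 and 3). Neighbours in this order differed by less than the larger SD, apart from garlic and curcumin, whose means differed by more. In these bulk samples, fewer cells of a type and less RNA per cell cannot be told apart.

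**Figure D1:**
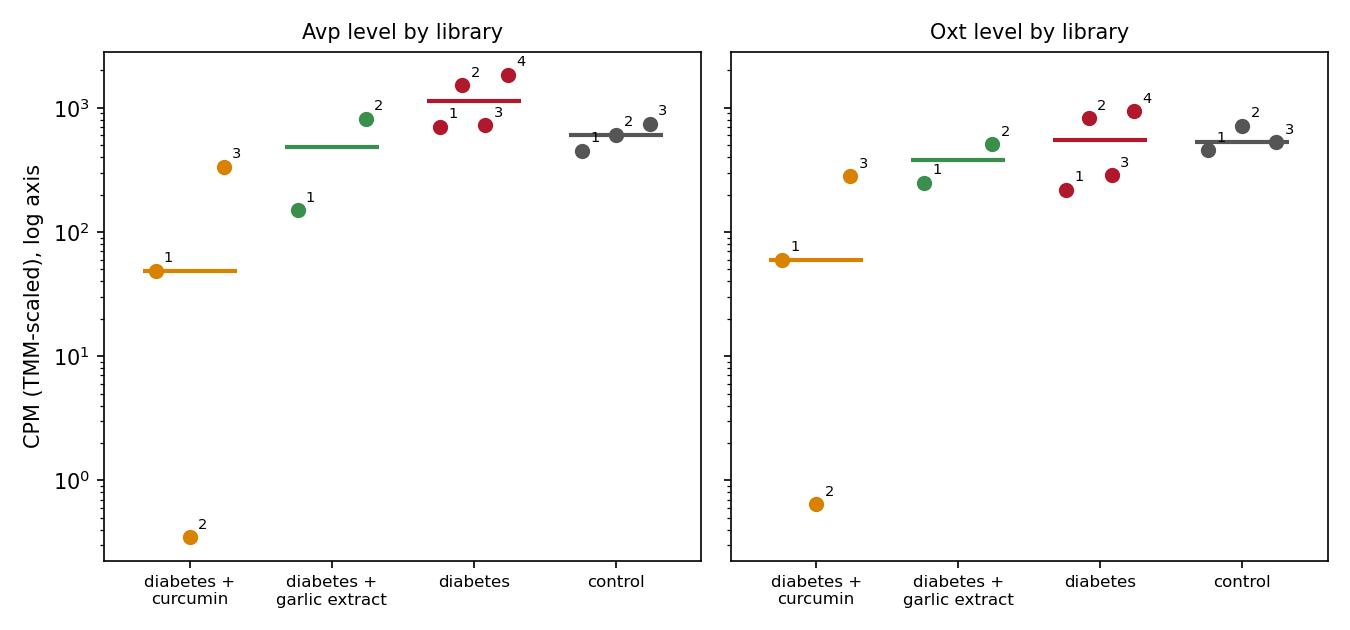
Levels of Avp (left) and Oxt (right) in CPM on a log axis, by group. Points are libraries numbered by replicate and bars are group medians; curcumin replicate 2 sits at 0.348 and 0.646 CPM, below all 11 other libraries.

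Per length of transcript the hormone genes can be set beside each other. Avp stood above Oxt per kilobase in 1 of 3 curcumin libraries, 1 of 2 garlic libraries, 4 of 4 diabetes libraries and 1 of 3 control libraries. In diabetes the level per kilobase was 1223 to 3200 CPM for Avp and 407 to 1748 CPM for Oxt, and in control 779 to 1286 CPM for Avp and 850 to 1336 CPM for Oxt.

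The ratio of the genes within a library depends on neither library size nor scaling. The ratio of Avp to Oxt counts was 0.818, 0.538 and 1.19 in replicates 1 to 3 of the curcumin group, and 0.597 and 1.60 in replicates 1 and 2 of the garlic group. It was 3.23, 1.85, 2.54 and 1.97 in diabetes replicates 1 to 4, and 0.985, 0.844 and 1.41 in control replicates 1 to 3. All 4 diabetes libraries, at 1.85 to 3.23, lay above all 8 others, at 0.538 to 1.60. How often ratios of other gene pairs separate diabetes in this way was not computed. On the log2 scale, with 0.5 added to each count, the means were -0.30 ± 0.55 with curcumin, -0.03 ± 1.01 with garlic extract, 1.22 ± 0.37 in diabetes and 0.08 ± 0.38 in control (SD).

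An exact permutation test over all 277200 assignments of the 12 libraries to groups of these sizes gave p = 0.0255 for any difference in the ratio, and 67.6% of its sum of squares lay between groups. This call ended without diabetes replicate 1 (p = 0.0808), diabetes replicate 3 (p = 0.0669) or curcumin replicate 1 (p = 0.0516), and without diabetes replicate 4 and curcumin replicate 2 together (p = 0.0829, all exact). In pairs of groups, the log2 ratio was higher by 1.15 in diabetes than in control, a 2.22-fold difference (exact permutation test, two-sided p = 0.0571, adjusted over 6 comparisons 0.171). It was lower by 1.52 with curcumin than in diabetes, log2 difference -1.52 (exact p = 0.0571, adjusted 0.171), and the difference of garlic from diabetes was -1.26 (exact p = 0.133, adjusted 0.267). These p-values are the smaller tail doubled, and in each of the 3 comparisons the observed assignment was the most extreme one, so p was the smallest this definition can give. Counting assignments with an absolute difference at least as large, a definition added after seeing the data, gave exact p = 0.0286 for diabetes against control and for curcumin against diabetes (adjusted 0.0857 each) and 0.0667 for garlic against diabetes (adjusted 0.133). None passed 0.05 after adjustment under either definition. Leaving out any 1 library kept the sign of all 3, at 0.99 to 1.36 for diabetes against control, -1.79 to -1.24 for curcumin against diabetes and -1.97 to -0.55 for garlic against diabetes.

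The treated groups and control overlapped in this ratio. The log2 difference was -0.37 for curcumin against control (exact p = 0.400), -0.11 for garlic against control (exact p = 1) and -0.26 for curcumin against garlic (exact p = 0.800), where the smallest p that doubling allows was 0.1 to 0.2. Without garlic replicate 1 the difference of garlic from control was 0.60, and without garlic replicate 2 that of curcumin from garlic was 0.45, so both signs rest on single libraries.

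**Figure D2:**
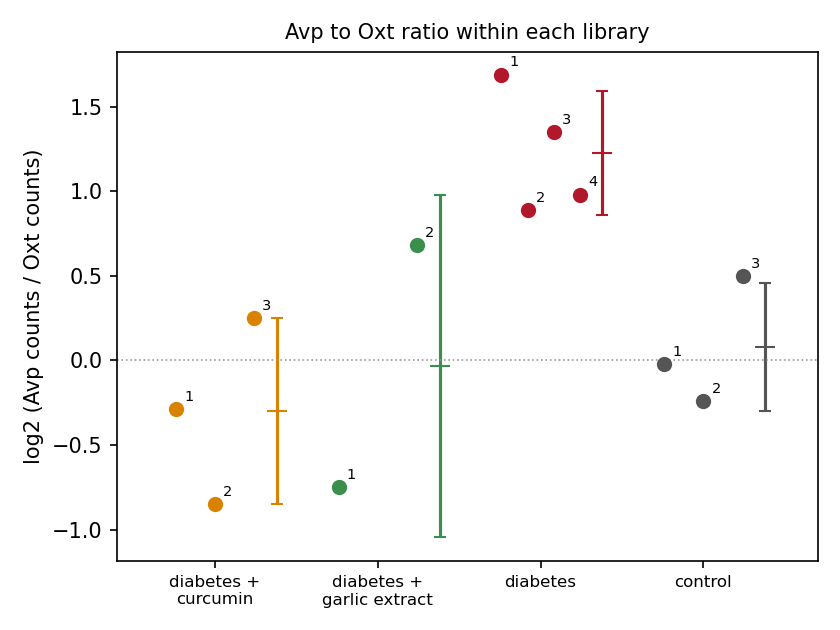
Ratio of Avp to Oxt counts within each library, on a log2 axis, by group; points are libraries numbered by replicate, and the bars beside them are the mean ± SD. The 4 diabetes libraries, at 0.89 to 1.69, lie above the 8 others, at -0.85 to 0.68.

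The comparison of diabetes with control asked whether the hormone genes differed in the disease model. By edgeR, fitted over all genes, 0 of the 2 genes passed an adjusted p of 0.05, where 0.0156% of the 25562 genes tested passed. Avp had a log2 change of 1.00 ± 0.95 (SE, 95% interval -1.0 to 3.0, edgeR adjusted p = 0.823). Oxt had a log2 change of -0.0017 ± 0.86 (95% interval -1.81 to 1.81, edgeR adjusted p = 1). Without diabetes replicate 4 the log2 changes were 0.71 for Avp and -0.36 for Oxt. The intervals span both directions, so they do not show that the levels were alike. With the number of detected genes as a covariate, the log2 change was -0.94 for Avp and -1.90 for Oxt. At the depth of the smallest library, 20133 to 22515 genes were expected to be detected in diabetes and 25766 to 33157 in control. These ranges do not overlap, so in this comparison the covariate cannot be separated from the group.

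Curcumin was then compared with vehicle in mice that had the same injection and diet, and both genes were at lower mean levels with curcumin. Avp had a log2 change of -3.22 ± 1.05 (95% interval -5.43 to -1.01) and Oxt one of -2.31 ± 0.94 (95% interval -4.27 to -0.35). Neither passed over all genes (edgeR adjusted p = 0.157 and 0.226), where 0.09% of genes did. Both had an unadjusted p under 0.05, as 17.2% of all genes did. Avp was lower in every curcumin library than in every diabetes library, a pattern held by 4.19% of genes, whereas Oxt overlapped because curcumin replicate 3 (282 CPM) lay above diabetes replicate 1 (219 CPM).

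The size of the Avp difference, or whether it passed, turned on single libraries. Without curcumin replicate 2, which had 1 count of Nkx2-1 and 4 of Otp, Avp had a log2 change of -2.60 and passed (edgeR adjusted p = 0.0285), in a fit where 7.79% of genes passed. It also passed without garlic replicate 1 (-3.23, edgeR adjusted p = 0.00922, with 1.73% of genes passing) or garlic replicate 2 (-3.23, adjusted p = 0.0183, with 1.6% passing). Leaving out a garlic library also changed the filter by group, so that 31107 and 30759 genes were tested in place of 25562. The total degrees of freedom, residual plus those borrowed across genes, were 41.9 and 36.7 in place of 18.5. For Oxt the log2 change without curcumin replicate 2 was -1.70 (edgeR adjusted p = 0.0848). Without curcumin replicate 3 the log2 change of Avp was -5.60 (edgeR adjusted p = 0.110). Without both curcumin replicate 2 and diabetes replicate 4 it was -2.33 (edgeR adjusted p = 0.0764) for Avp and -1.35 (adjusted p = 0.186) for Oxt.

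Curcumin replicate 1 was low in both hormones, with Otp and Sim1, factors of the same neurons, close to or inside the range of the other libraries. It held Avp at 48.8 CPM and Oxt at 59.7 CPM, but Otp, a factor needed for the formation of these neurons, at 41.0 CPM and Sim1, which acts in the same lineage, at 12.4 CPM. The other libraries apart from curcumin replicate 2 held Otp at 41.5 to 95 CPM and Sim1 at 6.18 to 16.7 CPM. Nkx2-1 was at 47.7 CPM in curcumin replicate 1. Of the suprachiasmatic genes, the same library had Six6 at 2.60 CPM and Vipr2, a receptor of vasoactive intestinal peptide, at 0.0947 CPM, the lowest Vipr2 level of the 12 libraries, but Vip itself was at 13.2 CPM. The summed level of the 8 suprachiasmatic markers was 32.6 to 65.6 CPM with curcumin, 23.4 to 60.7 CPM with garlic extract, 37.9 to 55.4 CPM in diabetes and 48.3 to 54.3 CPM in control, and its part in the hormone levels was not tested.

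Garlic extract against untreated diabetes gave log2 changes of -1.31 ± 1.12 for Avp (95% interval -3.67 to 1.04, edgeR adjusted p = 0.850) and -0.58 ± 1.00 for Oxt (95% interval -2.68 to 1.53, edgeR adjusted p = 1). The 2 garlic libraries differed widely in Avp, at 149 and 816 CPM. Without garlic replicate 1, which carried striatal genes and little Vip, the log2 change was -0.57 for Avp and -0.16 for Oxt. Without garlic replicate 2 it was -3.01 for Avp and -1.18 for Oxt, and without diabetes replicate 4 it was -1.03 and -0.22. Leaving out either garlic library leaves that group with 1 library, whose spread is taken to be that of the other groups. Neither gene passed, and 0% of all genes did by edgeR, with 2796 genes at an unadjusted p under 0.05, 412 called by DESeq2 and 429 by limma-voom.

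Against control, both hormones were lower in every curcumin library, as 5.84% of genes were. The log2 changes were -2.22 ± 1.04 for Avp (95% interval -4.40 to -0.04) and -2.31 ± 0.97 for Oxt (95% interval -4.34 to -0.28). Both had an unadjusted p under 0.05, as 2.34% of genes did, and neither passed (edgeR adjusted p = 1 for each). Without curcumin replicate 2 the log2 changes were -1.67 for Avp (edgeR adjusted p = 0.503) and -1.76 for Oxt (adjusted p = 0.390). Garlic against control gave -0.31 ± 1.12 for Avp (95% interval -2.66 to 2.04) and -0.58 ± 1.05 for Oxt (95% interval -2.78 to 1.62), with values of 0.44 for Avp and -0.16 for Oxt without garlic replicate 1. Curcumin against garlic gave -1.91 ± 1.10 for Avp (95% interval -4.22 to 0.40) and -1.73 ± 1.02 for Oxt (95% interval -3.87 to 0.41), again with an edgeR adjusted p of 1 for each. For Avp it was -0.22 without garlic replicate 2, -2.66 without garlic replicate 1, -1.36 without curcumin replicate 2 and -4.29 without curcumin replicate 3. For Oxt the same omissions gave -1.14, -2.15, -1.19 and -3.65, and none of these 8 values passed. In these 3 comparisons edgeR called 0% of genes, with 597, 28 and 408 genes at an unadjusted p under 0.05. DESeq2 called 5, 0 and 7, and limma-voom 0 in each. The 6 comparisons share groups and are not independent of each other.

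A single test for any difference among the 4 groups gave an F of 3.25 for Avp (edgeR adjusted p = 0.571) and 2.25 for Oxt (edgeR adjusted p = 0.696). Neither passed, where 0.18% of genes did. Without garlic replicate 2, which leaves 1 garlic library, Avp passed (F 7.74, edgeR adjusted p = 0.0338) in a fit where 1.46% of genes did. Without garlic replicate 1 it did not (F 7.1, edgeR adjusted p = 0.0508), where 1.13% of genes passed.

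Leaving out diabetes replicate 4, curcumin replicate 2 and garlic replicate 1 together, a set chosen after seeing the data, left 1 garlic library. Against diabetes, curcumin then gave -2.33 for Avp (edgeR adjusted p = 2.80e-05) and -1.35 for Oxt (adjusted p = 0.016), where 6.44% of genes passed. Against control, curcumin gave -1.68 for Avp (edgeR adjusted p = 0.011) and -1.77 for Oxt (adjusted p = 0.00631), where 0.669% passed. Against the lone garlic library, curcumin gave -2.13 for Avp (edgeR adjusted p = 0.00636) and -1.62 for Oxt (adjusted p = 0.0743), where 0.952% passed. The test for any difference passed for both genes (edgeR adjusted p = 2.95e-04 for Avp and 0.0121 for Oxt), as it did for 3.86% of genes.

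**Figure D3:**
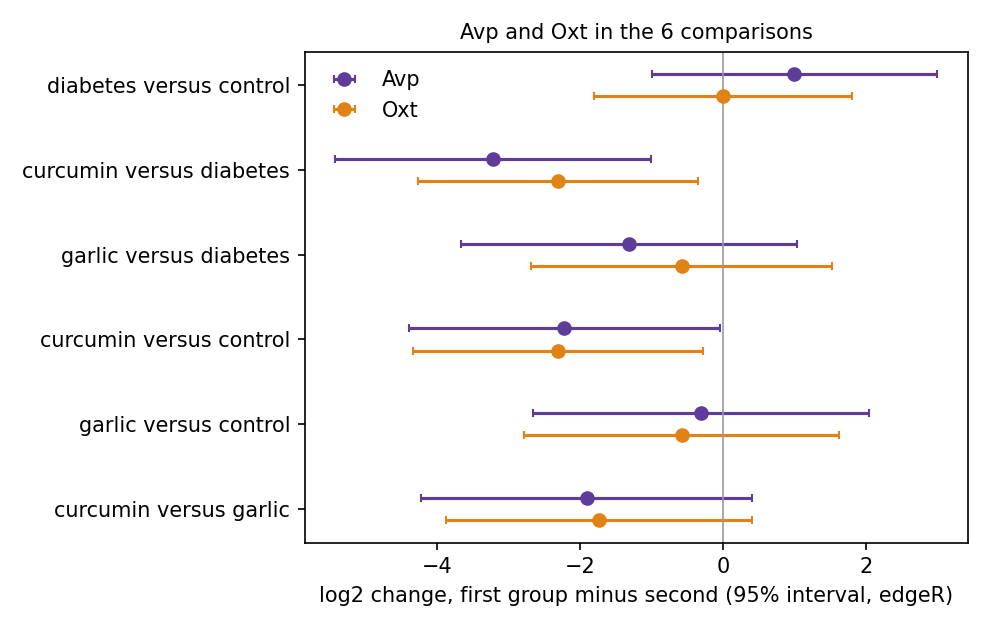
Log2 change of Avp and Oxt in the 6 comparisons, the group named first minus the second, from the edgeR fit over all 12 libraries; bars are 95% intervals. For curcumin the intervals against diabetes and against control lie below 0 for both genes, and no comparison passed after adjustment over all genes.

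The levels of Avp and Oxt varied together from library to library. Over the 12 libraries, log2 CPM of the genes gave Pearson's r of 0.98 (permutation p = 7.0e-05) and Spearman's rho of 0.84 (permutation p = 0.00121), the only relation tested between levels. Curcumin replicate 2 lies far from the others, and without it r was 0.87 and rho 0.79 (n = 11, permutation p = 0.00107 and 0.00559). Without both curcumin replicates 2 and 1, the libraries farthest from the median of Avp, r was 0.70 and rho 0.72 (n = 10, permutation p = 0.0204 and 0.0229). After the group means were subtracted, r was 0.98 over all libraries and 0.89 without curcumin replicate 2, given as descriptions. No group had the 6 libraries needed for a value of its own. Reads from the shared run of 127 bases, if counted for both genes or for the wrong one, would be common to both, and their number was not measured here.

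**Figure D4:**
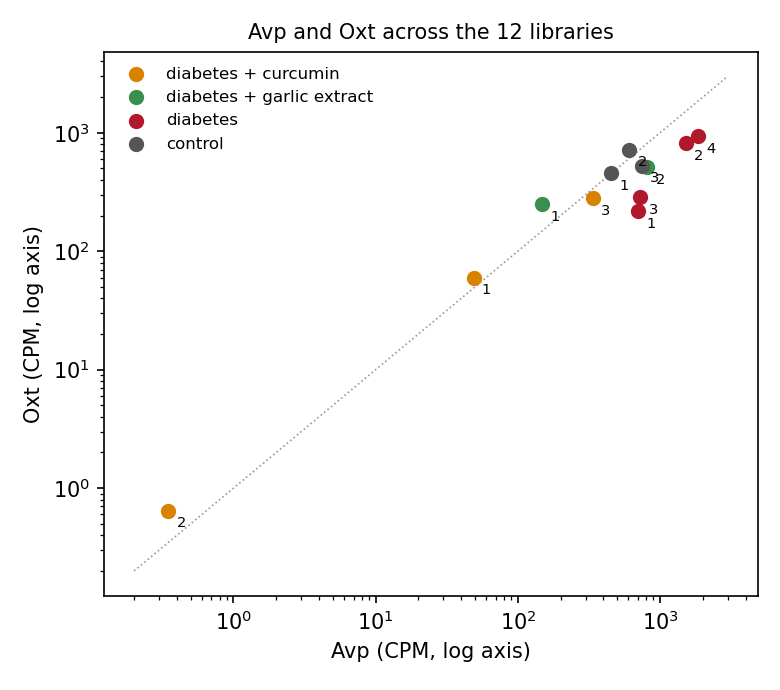
Oxt against Avp in CPM, both on log axes, for the 12 libraries numbered by replicate and coloured by group; the dotted line marks equal levels. Curcumin replicate 2 lies at the lower left, and the 4 diabetes libraries lie below the line, at 1.85 to 3.23 Avp counts per Oxt count.

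Among 13669 other named genes that averaged at least 1 CPM, 0 followed Avp more closely than Oxt did, or Oxt more closely than Avp did (Pearson's r = 0.977 over the 12 libraries). The nearest to Avp were Krt90, a keratin (r = 0.975), Gal, the peptide galanin made by many magnocellular neurons (0.959), Dlx1, a homeobox factor of GABA neurons (0.957), Trh, thyrotropin-releasing hormone (0.951), and Zcchc12 (0.945). The nearest to Oxt were Dlx1 (0.969), Otp (0.958), Dlx6 (0.955), Gal (0.954) and Zcchc12 (0.952). These rankings rest on curcumin replicate 2, where Otp, Gal, Trh and Dlx1 stood at 0.199, 2.23, 1.94 and 0.0993 CPM. Without that library, as a description chosen after the values were seen, r between the hormones was 0.873, and 152 genes followed Avp more closely and 39 followed Oxt more closely. The nearest to Avp were then Serf2, Fam183b, Sra1, Bloc1s1 and Fibp (r of 0.951 to 0.965), and the nearest to Oxt Fbln7, Pxmp4, Rsl1d1, Anp32a and Cda (0.932 to 0.953).

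Of the 4 receptor genes, Avpr1a and Oxtr were expressed at a few CPM and the others were near the limit of counting. Avpr1a, the main vasopressin receptor of the brain, averaged 1.57 ± 1.16 CPM with curcumin, 3.58 ± 1.27 CPM with garlic extract, 4.88 ± 0.981 CPM in diabetes and 3.89 ± 0.711 CPM in control (SD). Its log2 change with curcumin against diabetes was -1.63 ± 0.72 (edgeR adjusted p = 0.256). Oxtr, the oxytocin receptor, averaged 5.61 ± 3.49, 7.89 ± 3.12, 5.67 ± 2.89 and 8.21 ± 1.24 CPM in the same groups, with its lowest values in curcumin replicate 2 (1.59 CPM) and diabetes replicate 3 (1.91 CPM). Avpr1b, the receptor of pituitary corticotrophs, had 0 to 7 counts per library, and Avpr2, the receptor of the kidney, 0 to 27, and both fell below the filter on low counts. Neither Avpr1a nor Oxtr passed in any of the 6 comparisons, with edgeR adjusted p values of at least 0.256.

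Genes that cut and package the precursors did not pass either. Of 12 members, 0 rose and 0 fell in any comparison, with a median log2 change of 0.10 in diabetes against control, -0.09 in curcumin against diabetes and -0.22 in garlic against diabetes, where the medians of all genes were -0.07, 0.07 and 0.07. Pcsk1n, which encodes an inhibitor of the convertase Pcsk1, had the smallest p in each of these, at 1394 ± 826 CPM with curcumin, 1409 ± 135 CPM with garlic extract, 4857 ± 2836 CPM in diabetes and 1819 ± 235 CPM in control. Its log2 changes were 1.42 ± 0.40 in diabetes against control (edgeR adjusted p = 0.201), -1.80 ± 0.41 in curcumin against diabetes (adjusted p = 0.0677) and -1.79 ± 0.48 in garlic against diabetes (adjusted p = 0.218). By library it was 4244, 2439, 8953 and 3793 CPM in diabetes, against 1732, 2085 and 1640 CPM in control. The diabetes libraries thus lay above all controls, whereas curcumin replicate 2 (2338 CPM) lay close to diabetes replicate 2. The share of all genes that separate diabetes from control in this way was not computed. The next were Chga, chromogranin A, with a log2 change of 0.58 ± 0.27 in diabetes against control, and Vgf, a granule peptide precursor, with -0.82 ± 0.23 in curcumin against diabetes and -0.74 ± 0.27 in garlic against diabetes.

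Peptides and enzymes that magnocellular neurons also make gave 0 of 11 passing in either direction. Their median log2 changes were 0.19 in diabetes against control, -0.77 in curcumin against diabetes and -0.35 in garlic against diabetes. Cartpt, a satiety peptide made in several hypothalamic nuclei, stood at 85.9 ± 76.8 CPM with curcumin, 111 ± 61.2 CPM with garlic extract, 392 ± 102 CPM in diabetes and 100 ± 17.3 CPM in control. Nos1, the neuronal nitric oxide synthase, was at 122 ± 68.6 CPM with curcumin, 94.2 ± 27.3 CPM with garlic extract, 56.0 ± 11.2 CPM in diabetes and 94.1 ± 13.4 CPM in control. Pdyn, the dynorphin precursor found in vasopressin neurons, measured 55.1, 7.75 and 50.4 CPM with curcumin, against 63.4, 91.0, 113 and 102 CPM in diabetes. All 3 curcumin libraries lay below all 4 of diabetes, a pattern held by 4.19% of genes. In the same list Gal, Cartpt, Trh, Penk and Adcyap1 held it too, while Crh, Cck, Nos1, Th and Apln did not.

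Transcription factors of the magnocellular lineage gave 0 of 6 passing, with medians of -0.22, -0.07 and 0.51 in diabetes against control, curcumin against diabetes and garlic against diabetes. Arnt2, the partner of Sim1, had the smallest p in each, at 233 ± 111 CPM with curcumin, 232 ± 76.1 CPM with garlic extract, 149 ± 21.1 CPM in diabetes and 216 ± 47.2 CPM in control. Otp was at 28.8 ± 24.9 CPM with curcumin, against 69.0 ± 20.6 CPM in diabetes (log2 change -1.26 ± 0.74, edgeR adjusted p = 0.408), where Avp had -3.22; the difference between these was not tested. Without curcumin replicate 2 the values were -0.65 for Otp (edgeR adjusted p = 0.195) and -2.60 for Avp. Sim2 had a log2 change of -1.42 ± 1.24 in diabetes against control, and Pou3f2, also needed for these neurons, one of 0.60 ± 0.34 in garlic against diabetes.

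Among 13 genes of hormone gene activity, osmosensing, release and breakdown, 0 passed, with medians of -0.11, 0.30 and 0.47 in the same comparisons. Trpv1, an ion channel tied to osmosensing, had 0 counts in all 4 diabetes libraries and at most 22 in any library, too few to compare. Cd38, which oxytocin release requires, was at 23.6 ± 6.45 CPM in diabetes, against 14.0 ± 7.74 CPM in control (log2 change 0.75 ± 0.38). Nfat5, a factor that responds to high salt, was at 94.1 ± 39.9 CPM with curcumin, against 56.8 ± 18.7 CPM in diabetes (0.73 ± 0.30), and Slc12a2, a chloride transporter, at 109 ± 25.6 CPM with garlic extract, against 69.2 ± 17.7 CPM in diabetes (0.66 ± 0.27). These had edgeR adjusted p values of 0.233 to 0.437.

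Markers of the suprachiasmatic nucleus, the other source of Avp, gave 0 of 8 passing, with medians of -0.12, -0.19 and -0.07. Grp, gastrin-releasing peptide, was at 4.09 ± 1.96 CPM with garlic extract, 9.21 ± 0.747 CPM in diabetes and 4.34 ± 1.32 CPM in control, and Prok2, a clock output peptide, at 3.02 ± 1.46, 0.497 ± 0.691 and 2.72 ± 0.903 CPM in the same groups. With curcumin, Six6 was at 5.29 ± 7.04 CPM, against 12.0 ± 3.91 CPM in diabetes, and Vip at 13.9 ± 1.29 CPM, against 9.16 ± 4.40 CPM. None of these had an edgeR adjusted p under 0.380 in those comparisons.

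Markers of other tissues, and of neurons in general, differed between libraries and, for some lists, between groups. Summed over 5 blood cell genes, levels were 122 to 504 CPM with curcumin, 115 to 154 CPM with garlic extract, 264 to 1755 CPM in diabetes and 87.5 to 196 CPM in control, so every diabetes library lay above every control. The 11 anterior pituitary genes summed to 2.14 to 13.1, 5.16 to 6.03, 4.06 to 866 and 1.38 to 17.6 CPM in the same order, with 4 to 9 of them at 0 in each diabetes library. Among 9 thalamic genes the sums were 108 to 504 CPM with curcumin, 142 to 166 CPM with garlic extract, 85.5 to 152 CPM in diabetes and 185 to 430 CPM in control. Cortex and striatum genes summed to 41.8 to 116, 67.2 to 211, 49.4 to 86.6 and 47.9 to 60.0 CPM, and 6 genes of neurons in general to 2856 to 3995, 3224 to 3719, 2775 to 2945 and 3336 to 3638 CPM. Every diabetes library lay below every control in the sums of the thalamic genes and of the genes of neurons in general. How often diabetes and control separate in this way over all genes was not computed. Choroid plexus genes summed to 8.69 to 41.3, 26.6 to 30.6, 30.0 to 36.3 and 13.1 to 42.1 CPM, and genes of tanycytes and ependyma to 41.7 to 101, 55.3 to 70.1, 41.2 to 179 and 84.8 to 92.3 CPM. The part of these in the Avp and Oxt results was not tested. Without diabetes replicate 4, which had the highest pituitary and blood sums, the Avp to Oxt ratio of the other diabetes libraries was 1.85 to 3.23.

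The genes of smallest p in these lists, none of which passed, included Sox14 and Lhx9 among other hypothalamic transcription factors. They also included Pitx1, Cga, Gh and Prl of the pituitary, Prkcd, Rora and Tcf7l2 of the thalamus, and Tbr1, Ppp1r1b, Drd2 and Drd1 of cortex and striatum. For blood they were Hba-a2, Hbb-bt and Hbb-bs, for choroid plexus Folr1, Clic6, Ttr and Kcnj13, for tanycytes and ependyma Rarres2, Foxj1 and Col23a1, and for neurons Syt1, Map2 and Tubb3. Prkcd had the smallest edgeR adjusted p of them, 0.0927, in diabetes against control (8.78 ± 3.97 against 43.9 ± 41.6 CPM). Over all 14 lists, 0 of the 109 members tested rose or fell by edgeR in any of the 6 comparisons. Since at most 0.09% of all genes passed in any of these, the counts of 0 do not set the lists apart from other genes.

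**Figure D5:**
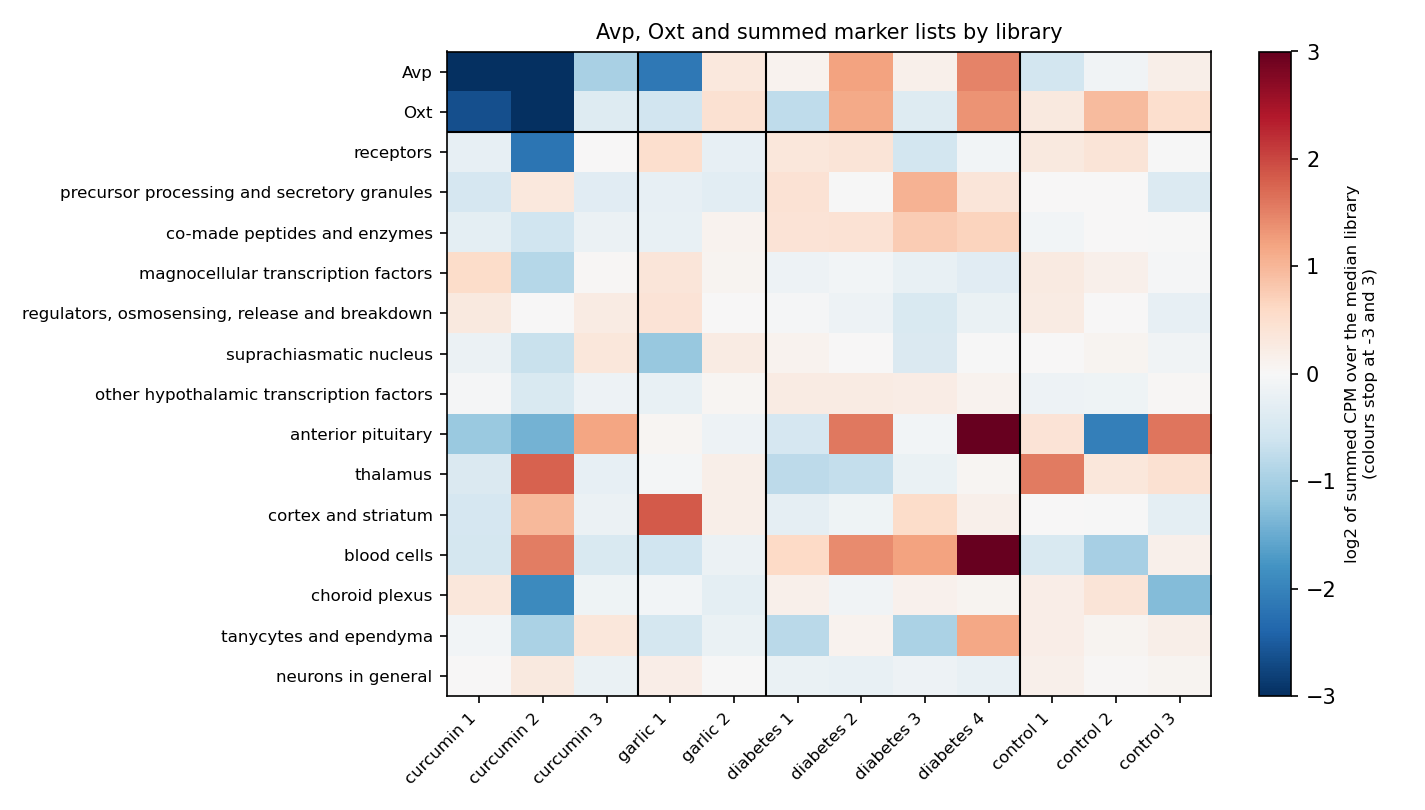
Avp, Oxt and the summed CPM of each marker list by library, as log2 of the value over the median of the 12 libraries; colours stop at -3 and 3. Avp and Oxt are lowest in curcumin replicates 1 and 2, and the pituitary and blood lists are highest in diabetes replicate 4.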

How the data were processed

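Hypothalamic RNA was sequenced from 12 libraries of paired reads of 150 bases, made with a stranded poly-A kit per the labels' protocols. The authors deposited a single table of raw counts for each gene and library. FastQC and featureCounts were used with GRCm39, per the submitters' processing notes; the aligner, annotation release, strand setting and treatment of reads with several matches were not stated in the labels or processing notes. Columns were matched to samples by library name, and 0 columns were left unused. Symbols came from GENCODE M21 (51486 IDs, 65.7%, carrying 97.8% of counts). Pairs of libraries differed by at least 19.96 chi-square per degree of freedom, so none looked like a library deposited again.

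Genes were filtered with filterByExpr by group (25562 kept), scaled by TMM and fitted in 1 model over all libraries with edgeR 4.0.16 by its quasi-likelihood test (glmQLFit, glmQLFTest) in R 4.3.3, with Benjamini-Hochberg adjustment over all genes and a threshold of 0.05. The common dispersion was 0.653. SEs are the log2 change divided by the root of F. The log2 ratio of Avp to Oxt was tested by exact permutation over libraries, and correlations used log2 CPM (prior count 2) with 100000 permutations. Genes were named by rule: Avp, Oxt, the receptors, the 2 of smallest p per list in the comparisons of diabetes with control and of each treatment with diabetes, and the 5 most alike each hormone gene. A few genes picked by these criteria are left out of the text. Pdyn, the members of its list set beside it and the genes named for libraries that stand apart were chosen after their values were seen. Alternatives used DESeq2 1.42.0, limma 3.58.1 (voom with library weights), other scaling, filters, covariates and left-out libraries. The scripts were tested on simulated data. The members and gene lists were chosen with earlier results of these data known.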

Additional observations from a re-analysis of the deposited data

How the results depend on the processing

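Of the 452 values recomputed for Avp, Oxt, their ratio and their correlation, 404 kept their direction and their side of the threshold. Without the filter on low counts the total degrees of freedom, residual plus those borrowed across genes, were 401672 in place of 18.5. In that fit 5 of the 6 Avp comparisons passed. These had log2 changes of 0.97 in diabetes against control, -3.20 in curcumin against diabetes and -1.26 in garlic against diabetes. The others were -2.23 in curcumin against control and -1.94 in curcumin against garlic. Oxt passed in the curcumin comparisons (-2.29 against diabetes, -2.32 against control and -1.76 against garlic). Both genes passed the test for any difference (F of 54.5 and 31.5). Far more genes were called in that fit, with 468 in diabetes against control, 1128 in curcumin against diabetes and 356 in garlic against diabetes. For curcumin there were 43 against control and 45 against garlic, and 947 genes passed for any difference. In the main fit the counts were 4, 23, 0, 0, 0 and 46 in the same order. With the covariate for detected genes the sign turned for Avp in diabetes against control (-0.94), garlic against diabetes (1.83) and garlic against control (0.89). For Oxt it turned in garlic against diabetes (2.47) and garlic against control (0.57). The number of detected genes in diabetes (20133 to 22515) did not overlap that in control (25766 to 33157) or garlic (33125 to 34719). Comparisons of diabetes with these groups therefore cannot separate the covariate from the group. Oxt in diabetes against control, near 0, was 0.05 with RLE scaling, 0.02 with the stricter filter and 0.05 by DESeq2, but -1.90 with the covariate for detected genes and -0.42 with the replicate block. By limma-voom Avp passed the test for any difference (F 7.93), where 1277 genes did, against 46 in the main fit. A further set, chosen after seeing the data, left out diabetes replicate 4, curcumin replicate 2 and garlic replicate 1. For curcumin, the log2 changes of Avp were then -2.33 against diabetes, -1.68 against control and -2.13 against garlic. Those of Oxt were -1.35 against diabetes and -1.77 against control. The F for any difference was 12.2 for Avp and 7.35 for Oxt. The garlic group then held 1 library, whose spread is taken to be that of the other groups. In this set the sign turned for Avp in garlic against control (0.45) and Oxt in garlic against diabetes (0.27). The causes were not tested. Without diabetes replicate 4 and curcumin replicate 2 the ratio of curcumin to garlic was 0.01 on the log2 scale, and the exact p of the ratio for any difference 0.0829.

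With each library left out in turn, values ran from -5.60 to -2.60 for Avp in curcumin against diabetes, -2.0 to 0.44 for Avp in garlic against control, -0.36 to 0.27 for Oxt in diabetes against control, F of 2.04 to 7.74 for Avp in any difference, -0.82 to 0.60 and -0.97 to 0.45 for the log2 ratio in garlic against control and curcumin against garlic, and exact p of 0.00489 to 0.0808 for the ratio in any difference. The labels do not say whether replicate numbers pair the libraries. Of 15 pairs with the same number in different groups, 4 had deviations from their group means correlated above 0.1, over a range of -0.27 to 0.43. All 4 involved a garlic library. With 2 libraries in that group their deviations mirror each other, so this check cannot decide whether libraries were paired. With the replicate block, Avp in curcumin against diabetes was -3.59 (edgeR adjusted p = 0.217), Oxt in garlic against diabetes turned to 0.01, no call of Avp or Oxt changed, and edgeR called 1 gene in diabetes against control and 47 in curcumin against diabetes. The number of genes called moved with the settings, from 0 to 1177 in diabetes against control (4 as reported), 0 to 1975 in curcumin against diabetes (23) and 0 to 429 in garlic against diabetes (0). Groups of 2 to 4 libraries limit what can be told apart. So does the biological coefficient of variation, 0.819 for Avp and 0.762 for Oxt. Low counts bear most on curcumin replicate 2, with 7 Avp and 13 Oxt counts in a library total of 21539173.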
